A study of Homo sapiens with 12 samples.

Results

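HT1080 cells that received both interferon gamma (IFNγ) and a 20 Gy dose of radiation were compared with HT1080 cells that received neither. HT1080 is an established human fibrosarcoma line, a connective tissue tumour grown in culture. The comparison holds 6 of the series' 12 RNA sequencing libraries, chosen by their labels: 3 from cells given IFNγ at 10 ng/ml together with 20 Gy, and 3 from cells labelled non-treated. The other 6 libraries, 3 from cells given IFNγ at 10 ng/ml alone and 3 from cells given 20 Gy alone, entered the same statistical fit and served to place the doubly treated cells against each single treatment. All cells were harvested at 24 h, have no engineered allele named in the labels, and come from 1 line, so the spread between libraries is not a spread between tumours. Per the labels, the controls received neither agent; whether they were sham-handled is not stated. The labels do not say whether replicates were separate cultures, and p-values therefore reflect only library-to-library spread, some or all of it possibly technical.

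IFNγ is the type II interferon, made mainly by T cells and natural killer cells. It binds the receptor chains IFNGR1 and IFNGR2, the kinases JAK1 and JAK2 are activated, and gamma-activated sites (GAS) are bound in promoters, among them that of the transcription factor IRF1. Complexes that hold STAT2 and IRF9, and IRF1 itself, act at interferon-stimulated response elements (ISRE). Ionizing radiation breaks DNA, which stabilizes the transcription factor p53; its target CDKN1A blocks cyclin-dependent kinases, so that the E2F factors which drive replication genes stay bound by RB-family proteins. ATF4 is the factor that raises amino acid import and synthesis genes under stress or amino acid shortage, and SLC7A11 is the cystine-importing chain of the transporter called system xc-.

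Levels are given as CPM, counts scaled to 1000000 of the adjusted library total, which do not correct for gene length and so are compared between libraries and not between genes. Differences are fitted log2 fold changes ± SE from edgeR's quasi-likelihood fit. The SE is of the Wald type, computed from the fitted means and dispersions, whereas p-values come from edgeR's quasi-likelihood F test. A gene is said to have risen or fallen where its Benjamini-Hochberg adjusted p, over all 12160 genes tested, was below 0.05. Total counts per library ran from 9675126 to 11010656, and the filter on low counts left 7133 genes out, which held 0.0678% of all counts. Of the genes in the lists below, 55 were left out this way, among them NOS2, CCL2, CCL5, TNF, IFNB1, VCAM1 and CDKN2A. Of 9 genes of mesenchymal cells, which a fibrosarcoma should express, the summed level was 9548 to 9758 CPM in untreated and 9527 to 9547 CPM in doubly treated libraries. That sum hides members that moved both ways: VIM, SPARC and CDH2 fell, FN1, CD44 and NT5E rose, and S100A4 and PDGFRB did not pass the test. NT5E and S100A4 reached at most 23 and 21 counts in any library, and THY1 at most 2. The epithelial markers EPCAM, CDH1 and KRT19 reached at most 2 counts in any library, and the 4 endothelial markers summed to at most 2.18 CPM in any library. The keratins KRT8 and KRT18 carried the epithelial list, whose sum was 384 to 409.7 CPM in untreated and 571 to 588 CPM in doubly treated libraries. The immune list, at 120.1 to 128 CPM and 191 to 203 CPM, was led by CD68, a lysosomal protein that is not limited to immune cells, and PTPRC, the pan-leukocyte surface protein, reached at most 23 counts. Those 23 counts were in irradiated replicate 2, which also held the highest counts of MS4A1 (8), LYZ (14), CD14 (7), COL3A1 (23) and MMP9 (26), so that library stood apart from its replicates in these genes. Without that library 1518 genes were higher and 1259 lower in doubly treated than in irradiated cells, in place of 1761 and 1509 (14.5% and 12.4% of those tested). Leaving out irradiated replicate 1 gave 1526 and 1246, and leaving out replicate 3 gave 1564 and 1218, so the loss was not particular to replicate 2. In bulk RNA a change in the share of cells with a given transcript and a change in transcript per cell cannot be told apart.

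After both treatments 3752 genes were higher (30.9% of those tested) and 3798 were lower (31.2%), so that counts in the 2 directions were nearly equal. Sizes were not: 726 genes rose at least 2-fold (5.97%) and 206 fell at least 2-fold (1.69%). Of the called genes 2035 differed by no more than 0.25 on the log2 scale and 87 differed by more than 4. The common biological coefficient of variation between replicates was 2.71%. Untreated replicate 1 stood apart from its replicates in the number of genes with any count, 15308 against 14301 and 14191. Without that library 3640 genes were higher and 3675 lower in doubly treated than in untreated cells. Leaving out untreated replicate 2 gave 3597 and 3590, and leaving out replicate 3 gave 3545 and 3584, so the loss was not particular to replicate 1. Where the mean level over all libraries reached 2 on the log2 CPM scale and the groups did not overlap, the 12 largest increases were in IDO1, GBP5, GBP4, BST2, CD74, CTSS, ICAM1, C1R, HLA-DRA, C1S, GBP2 and APOL3. The 12 largest decreases by the same rule were in FAM111B, SLC7A11, MCM6, SLC1A4, ESM1, CXCL8, WDR76, H1F0, S1PR1, ASNS, E2F1 and CCNE2.

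**Figure D1:**
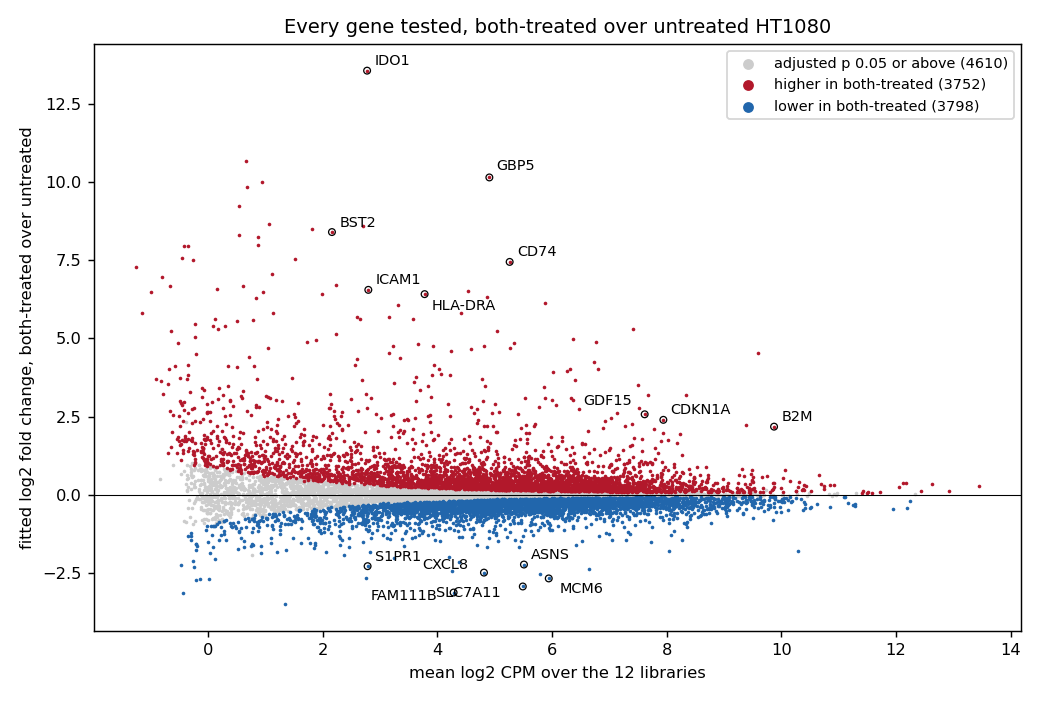
Each point is 1 of the 12160 genes tested, at its mean log2 CPM over the 12 libraries (x axis) and its fitted log2 fold change of doubly treated over untreated cells (y axis); red and blue mark the 3752 higher and 3798 lower genes at an adjusted p below 0.05, and circled genes are named. Points above 0 spread much further than points below it, with 87 called genes more than 4 log2 units from 0.

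**Figure D2:**
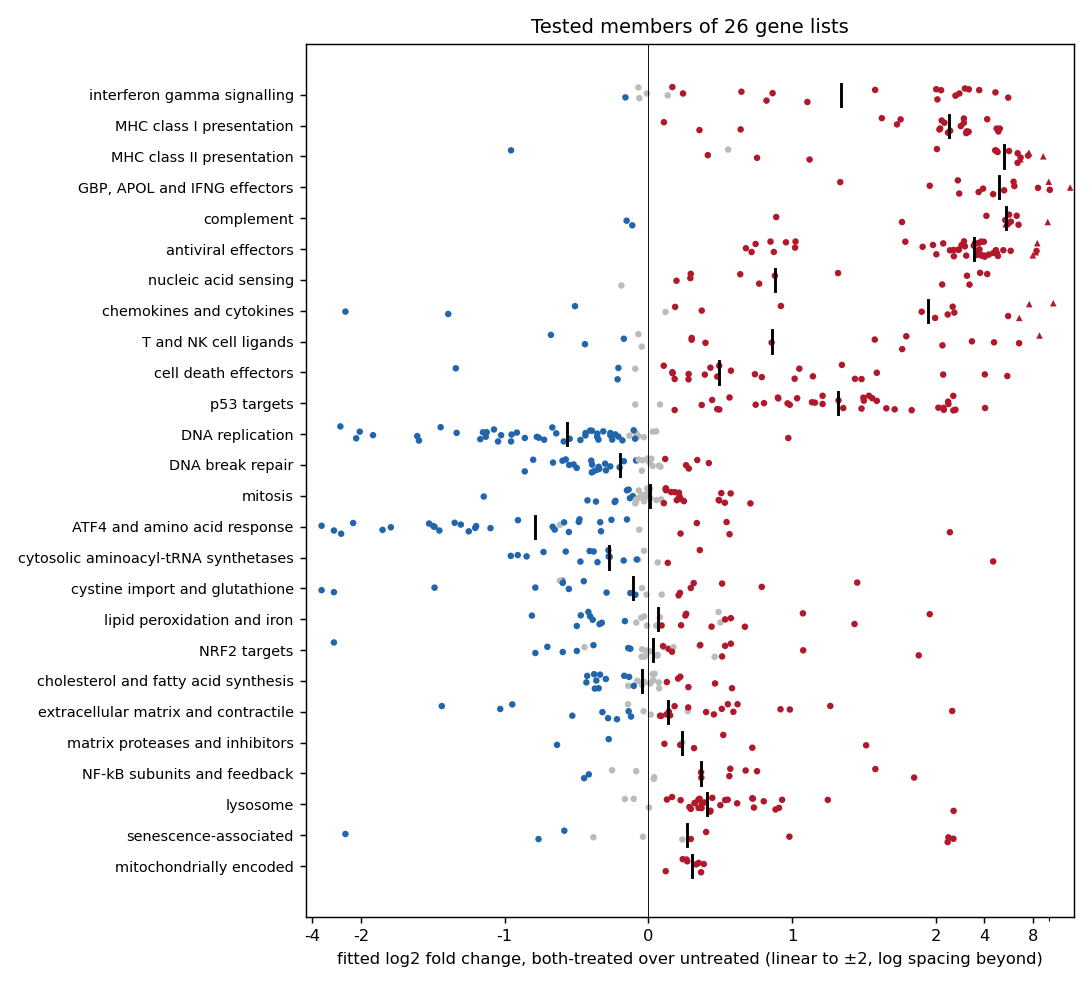
Each point is a tested member of 1 of 26 gene lists, at its fitted log2 fold change of doubly treated over untreated cells (x axis, linear to 2 in both directions and logarithmic beyond); red is higher, blue lower and grey not called, triangles have at most 3 counts over the 3 untreated libraries so that their fitted value is not a bound, and black bars are medians. The interferon lists at the top lie to the right of 0, p53 targets lie to the right, and DNA replication and ATF4 genes lie mostly to the left.

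Of 22 tested genes of IFNγ signalling, 17 rose and 1 fell, against 30.9% and 31.2% of all genes, with a median log2 fold change of 1.34 beside a median of -0.00137 over all genes tested. The receptor and its kinases moved little. IFNGR1 (0.24 ± 0.0717), JAK1 (0.17 ± 0.0369) and JAK2 (0.65 ± 0.121) rose, and IFNGR2 (-0.06 ± 0.0624, adjusted p = 0.390) did not pass the test. The transcription factors STAT2 (3.03 ± 0.0722) and IRF9 (2.80 ± 0.102) rose. IRF1 stood at 6.94, 6.96 and 6.80 CPM in untreated and 167, 165 and 200.1 CPM in doubly treated libraries (4.68 ± 0.244, adjusted p = 7.42e-09). The 2 groups lay far apart, and the third doubly treated library had the highest IRF1 level of its group. The largest change of the list was in BATF2 (5.62 ± 0.323), an AP-1 family factor. Among feedback genes, SOCS1, which binds and blocks JAK kinases, rose by 2.16 ± 0.445, SOCS3 by 0.82 ± 0.0862 and USP18, which removes the ubiquitin-like protein ISG15 from its targets, by 2.65 ± 0.214. The phosphatase gene PTPN2 was the single member that fell (-0.16 ± 0.0625, adjusted p = 0.0236), and that call depended on single libraries: its adjusted p was 0.0608 without untreated replicate 3, 0.0647 without doubly treated replicate 2, 0.0526 without doubly treated replicate 3.

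Promoter sequences show the elements named above at IRF1, ICAM1, BST2 and IFIT1, which rose, and at CD274, described further on. The windows searched were the 250 bases before each RefSeq transcription start on GRCh38.p14, on both strands, for TTCNNNGAA as GAS and GAAANNGAA as ISRE core; the 2 patterns can overlap. The stretches below run 5′ to 3′ on the gene's strand with the matched letters in capitals, from 20 bases before the first match to 20 after the last or to the start site where that comes first. IRF1 and ICAM1, an adhesion molecule bound by leukocyte integrins, show a GAS.
IRF1 (chr5:132490869-132490917, minus strand): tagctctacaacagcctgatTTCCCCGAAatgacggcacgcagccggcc
ICAM1 (chr19:10271025-10271073, plus strand): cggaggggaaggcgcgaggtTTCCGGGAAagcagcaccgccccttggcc
BST2, which tethers budding virus particles, IFIT1, which binds foreign RNA, and CD274, which encodes PD-L1, show paired ISRE cores.
BST2 (chr19:17405726-17405780, minus strand): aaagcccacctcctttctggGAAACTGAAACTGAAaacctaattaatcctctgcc
IFIT1 (chr10:89392488-89392549, plus strand): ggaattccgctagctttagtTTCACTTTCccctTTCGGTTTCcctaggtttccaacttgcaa
CD274 (chr9:5450315-5450369, plus strand): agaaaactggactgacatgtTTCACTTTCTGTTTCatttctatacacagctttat
The 45 antiviral genes matched 46 such windows through 34 of their symbols, and 27 of these (58.7%) held an ISRE core, against 6.88% of all 35116 promoters in the table. Among MHC genes the share was 8 of 28 windows for class I (28.6%) and 6 of 19 for class II (31.6%). GAS letters occurred in 6.57% of all promoters. The share was 5 of 13 windows for complement (38.5%), 8 of 46 for antiviral genes (17.4%), 3 of 26 for the signalling genes (11.5%), 2 of 28 for class I (7.14%) and 0 of 19 for class II. The complement windows came from only 7 of 13 tested genes. Those of signalling, class I and class II came from 17, 18 and 14 genes. A gene with several starts has several windows, so shares of windows are not shares of genes. Mitosis genes, which are no interferon list, had 5 of 46 (10.9%), about the share of the signalling genes. ISRE cores occurred in 1 of 13 complement and 2 of 26 signalling windows (7.69% each), near the share of all promoters. These are matches of letters and not measured binding.

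All 22 tested genes of MHC class I presentation rose, beside 30.9% of all genes, with a median log2 fold change of 2.42. Class I molecules carry peptides from inside the cell to the surface for inspection by CD8 T cells. HLA-B, a heavy chain, was at 13.7, 12.8 and 11.98 CPM in untreated and 377, 399 and 442 CPM in doubly treated libraries (4.98 ± 0.148, adjusted p = 3.95e-12). B2M, the light chain shared by all class I molecules, was at 404, 411 and 426 CPM and 1844, 1865 and 1900.4 CPM, a log2 fold change of 2.18 ± 0.0288 (adjusted p = 1.61e-52). Neither gene's groups overlapped. Steps before the surface rose as well: the peptide transporter chains TAP1 (4.88 ± 0.159) and TAP2 (1.76 ± 0.0446), the immunoproteasome subunits PSMB9 (4.76 ± 0.116), PSMB10 (2.98 ± 0.102) and PSMB8 (2.86 ± 0.0615), the trimming peptidases ERAP1 (1.62 ± 0.0497) and ERAP2 (2.11 ± 0.0374), and NLRC5 (3.09 ± 0.0774), the transactivator of class I genes. The general chaperones of the endoplasmic reticulum that also serve class I folding moved least, with CALR (0.64 ± 0.0264), PDIA3 (0.36 ± 0.0279) and CANX (0.11 ± 0.0276). HLA genes resemble one another closely and may exchange reads, so single heavy chain values are uncertain.

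Class II molecules show peptides from outside the cell to CD4 T cells and are silent in most tissue cells until IFNγ induces the transactivator CIITA. Of 18 tested class II genes 16 rose and 1 fell, beside 30.9% and 31.2% of all genes. Their median log2 fold change was 5.25, or 4.71 with the 3 genes at 0 untreated counts set at a floor of 3 counts over the group. CIITA was at 4.41, 4.42 and 5.08 CPM in untreated and 109.9, 112 and 132 CPM in doubly treated libraries (4.67 ± 0.156, adjusted p = 9.19e-25). CD74, the invariant chain that guards the peptide groove, went from 1.97, 3.20 and 1.93 CPM to 374, 407 and 472 CPM (7.45 ± 0.667, adjusted p = 2.79e-08). HLA-DRA, the DR alpha chain, went from 1.13, 1.60 and 0.914 CPM to 100.2, 101 and 114 CPM (6.42 ± 0.560, adjusted p = 2.07e-08). For these 3 genes every doubly treated library lay above every untreated one. HLA-DOA had 0 counts in untreated cells and was at least 76.4-fold higher, and HLA-DRB5 at least 22.6-fold. HLA-DMB, a chain of the peptide exchange factor, had 3 counts in untreated cells and a ratio of 212 (exact 95% interval 72.1 to 1029). The protease CTSS, which cuts the invariant chain, rose from 0.469, 0.282 and 0.203 CPM to 30.1, 34.1 and 39.6 CPM (6.70 ± 0.594, adjusted p = 7.28e-19), and the thiol reductase IFI30 (5.68 ± 0.536) rose too. RFXAP, a subunit of the complex that binds class II promoters, was the member that fell (-0.96 ± 0.148, adjusted p = 8.64e-08), while its partners RFX5 (1.12 ± 0.0515) and RFXANK (0.41 ± 0.0864) rose.

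Against IFNγ alone, where 30.3% of all genes were higher and 30.4% lower in doubly treated cells, class II genes were mostly lower: 3 were higher and 12 lower. CD74 was at 624, 565 and 556 CPM in IFNγ-treated libraries, a log2 difference of doubly treated over IFNγ-treated cells of -0.48 ± 0.138 (adjusted p = 0.0150). CIITA was at 167, 147 and 146 CPM there (-0.38 ± 0.0564, adjusted p = 1.30e-06) and HLA-DRA at 185, 177 and 166 CPM (-0.74 ± 0.108, adjusted p = 2.56e-04). The 3 members that were higher than under IFNγ alone were CTSS (0.66 ± 0.104), IFI30 (0.63 ± 0.138) and RFXANK (0.38 ± 0.0861), which are not class II chains. For class I, 8 of 22 were higher and 4 lower than under IFNγ alone. Against radiation alone, 14.5% of all genes were higher and 12.4% lower, 1761 against 1509, and that split rested on the scaling: with library totals in place of TMM it was 1398 against 2278. List counts against radiation alone were not recomputed under that scaling. With the main scaling 21 of 22 class I and 15 of 18 class II genes were higher and 0 were lower. These comparisons use the same doubly treated libraries and are not independent of one another.

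All 14 tested guanylate binding proteins, apolipoproteins L and metabolic effectors of IFNγ rose, each at least 2-fold, beside 5.97% of all genes. IDO1, which breaks down tryptophan, had 0 counts in the 3 untreated libraries and 120.4, 125 and 196 CPM in the doubly treated ones, at least 1537-fold higher. WARS, the tryptophanyl-tRNA synthetase, was at 163, 159 and 161 CPM in untreated and 3590.2, 3627 and 3949 CPM in doubly treated libraries (4.53 ± 0.0823, adjusted p = 5.78e-11). GBP5, a GTPase that attacks vacuoles of intracellular microbes, was at 0.188, 0.565 and 1.32 CPM and 673, 726 and 947 CPM (10.15 ± 1.69, adjusted p = 6.53e-08). The untreated GBP5 values rest on few counts, and its log2 fold change was 10.98 without untreated replicate 3. Other members were GBP4 (8.59 ± 1.48), GBP2 (6.13 ± 0.118), GBP1 (5.30 ± 0.157) and APOL3 (6.06 ± 0.282), and APOL4, from 0 untreated counts, was at least 129-fold higher. GCH1, which starts tetrahydrobiopterin synthesis, rose by 1.96 ± 0.135, and the mitochondrial superoxide dismutase SOD2 by 1.34 ± 0.0860.

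Complement is a cascade of plasma proteases that marks cells and microbes, and tissue cells can make its components. Of 13 tested genes 11 rose and 2 fell, beside 30.9% and 31.2% of all genes, with a median log2 fold change of 5.41. C1R, a protease of the first component, was at 2.44, 2.64 and 1.93 CPM in untreated, 106, 98.1 and 90.0 CPM in IFNγ-treated, 6.75, 5.02 and 4.08 CPM in irradiated and 204, 210.2 and 228 CPM in doubly treated libraries. The doubly treated libraries lay above all others, with log2 differences of 6.51 ± 0.196 from untreated (adjusted p = 2.50e-35) and 1.13 ± 0.0514 from IFNγ-treated cells (adjusted p = 2.34e-20). C1S, its partner protease, was at 2.44, 3.48 and 2.23 CPM in untreated and 212, 218 and 234 CPM in doubly treated libraries (6.34 ± 0.164, adjusted p = 3.11e-49). C3, the hub of the cascade, was at 0.188, 0.188 and 0.102 CPM in untreated, 1.38, 0.467 and 1.30 CPM in IFNγ-treated, 2.02, 4.22 and 1.46 CPM in irradiated and 6.38, 7.75 and 10.8 CPM in doubly treated libraries. Its log2 differences were 5.60 ± 0.999 from untreated (adjusted p = 2.10e-08), 2.99 ± 0.426 from IFNγ-treated (adjusted p = 6.12e-07) and 1.71 ± 0.305 from irradiated cells (adjusted p = 1.55e-04). C2 (5.83 ± 0.571), C4A (5.39 ± 0.775) and CFB (4.12 ± 0.428) rose, and C4B was at least 117-fold higher; C4A and C4B are near-identical copies, so the split between them is uncertain. The regulators differed: the membrane cofactor CD46 (0.89 ± 0.0353) rose, and the membrane shields CD59 (-0.15 ± 0.0291) and CD55 (-0.11 ± 0.0459) fell slightly. The CD55 call was lost without single libraries, with an adjusted p of 0.124 without untreated replicate 2, 0.103 without untreated replicate 3, 0.144 without doubly treated replicate 1, 0.0720 without doubly treated replicate 3. Against IFNγ alone 9 of 13 complement genes were higher and 1 lower, beside 30.3% and 30.4% of all genes.

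**Figure D3:**
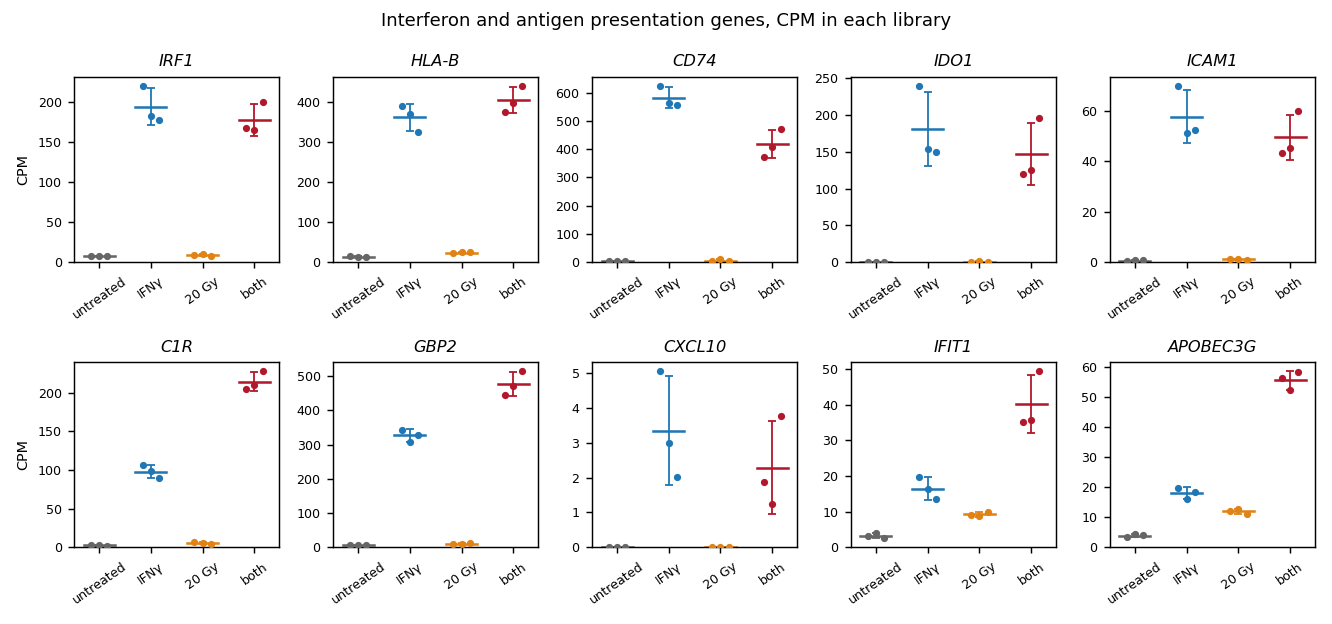
CPM on a linear axis from 0 (y axis) in each library for 10 genes of interferon and antigen presentation biology in 4 groups (x axis: untreated, IFNγ, 20 Gy, and both); points are libraries, horizontal lines are group means and bars are SD over 3 libraries. Doubly treated libraries of C1R, GBP2, IFIT1 and APOBEC3G lie above all others, and those of CD74 lie below the IFNγ-treated ones.

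All 45 tested antiviral genes rose, with a median log2 fold change of 3.44, and 39 of them rose at least 2-fold. Of all genes 30.9% rose and 5.97% rose at least 2-fold. BST2 was at 0.281, 0.0941 and 0.102 CPM in untreated and 55.3, 53.8 and 66.3 CPM in doubly treated libraries (8.41 ± 0.771, adjusted p = 2.53e-26). That value rests on 5 untreated counts, and without untreated replicate 1 it was 9.06. IFI44L had 1 untreated count and a ratio of 439 (exact 95% interval 78.3 to 17358), XAF1, a regulator of apoptosis, had 3 untreated counts and a ratio of 408 (exact 95% interval 139 to 1979.6), and RSAD2, which makes a chain-terminating nucleotide, was at least 31.5-fold higher from 0. Genes with more counts at baseline rose too: OAS2, which makes the activator of RNase L, by 5.82 ± 0.548, IFIT3 by 4.85 ± 0.296, MX1 by 3.86 ± 0.409 and PARP9 by 4.26 ± 0.0719. Against IFNγ alone 25 of 45 were higher and 3 lower, beside 30.3% and 30.4% of all genes. Against radiation alone 43 were higher and 0 lower, beside 14.5% and 12.4% of all genes. The 3 lower than under IFNγ alone were IFIT5 (-0.39 ± 0.0643), DTX3L (-0.23 ± 0.0329) and UBE2L6 (-0.16 ± 0.0372). The antiviral genes took 0.0977, 0.101 and 0.0972% of counts in untreated and 0.532, 0.539 and 0.626% in doubly treated libraries, so the third doubly treated library stood above its 2 replicates. That library also had the highest IDO1, IRF1 and IFIT1 of its group; its part in the results was measured by leaving it out, which left all of these 45 genes called.

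Of 13 tested genes that sense foreign or misplaced nucleic acid 12 rose and 0 fell, beside 30.9% and 31.2% of all genes. The sensors led: AIM2 (4.16 ± 0.147) detects cytosolic DNA, TLR3 (3.76 ± 0.170) endosomal double-stranded RNA, and DHX58 (3.23 ± 0.194), IFIH1 (3.12 ± 0.189) and DDX58 (2.19 ± 0.0789) cytosolic RNA. TLR3 was at 3.19, 3.01 and 2.33 CPM in untreated, 31.2, 23.8 and 26.1 CPM in IFNγ-treated, 7.76, 7.93 and 5.93 CPM in irradiated and 37.2, 38.4 and 41.3 CPM in doubly treated libraries, and the doubly treated libraries were the highest. The adaptors moved less, with STING (TMEM173) at 0.77 ± 0.0571, MAVS at 0.29 ± 0.0416 and the kinase TBK1 at 0.20 ± 0.0551. The DNA sensor cGAS (MB21D1) did not pass the test (-0.19 ± 0.176, adjusted p = 0.361); it was lower than under IFNγ alone (-0.44 ± 0.171, adjusted p = 0.0220) and higher than under radiation alone (0.54 ± 0.201, adjusted p = 0.0361).

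Of 16 tested chemokines and cytokines 12 rose and 3 fell, beside 30.9% and 31.2% of all genes. The 2 directions held different kinds of chemokine. The CXCR3 ligands, which attract activated T cells, rose from near silence: CXCL9 had 0 untreated counts and 14.03, 19.7 and 25.2 CPM in doubly treated libraries, at least 205-fold higher, CXCL10 was at least 23.9-fold higher, and CXCL11 had 1 untreated count and a ratio of 131 (exact 95% interval 23.1 to 5203). CXCL8, which attracts neutrophils through CXCR1 and CXCR2, fell from 65.8, 72.3 and 68.2 CPM to 12.8, 14.3 and 9.64 CPM (-2.49 ± 0.107, adjusted p = 4.98e-20). CXCL3, another neutrophil attractant, was at 4.31, 3.58 and 3.86 CPM and 2.16, 1.42 and 0.918 CPM (-1.39 ± 0.259, adjusted p = 2.08e-06). Neither chemokine's groups overlapped. Among cytokines, CSF1, the growth factor of macrophages, rose from 52.4, 56.1 and 51.7 CPM to 307, 305 and 363 CPM (2.61 ± 0.101, adjusted p = 2.89e-09), IL15 (1.996 ± 0.161), which sustains natural killer cells, rose, and IL6 (2.37 ± 0.267) and IL33 (2.55 ± 0.420) rose from low levels. IL1B (0.19 ± 0.0604) rose slightly, and IL1A fell (-0.51 ± 0.188, adjusted p = 0.0150), a call that was lost without single libraries (adjusted p 0.0782 without untreated replicate 3, 0.0622 without doubly treated replicate 2, 0.0844 without doubly treated replicate 3).

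Of 17 tested surface ligands and inhibitors read by T and natural killer cells 12 rose and 3 fell, beside 30.9% and 31.2% of all genes. ICAM1 was at 0.281, 0.659 and 0.609 CPM in untreated and 43.4, 45.1 and 59.7 CPM in doubly treated libraries (6.56 ± 0.907, adjusted p = 4.26e-07). TNFSF9 (4-1BB ligand), a costimulator of T cells, was at 16.8, 15.999 and 14.6 CPM in untreated, 11.97, 14.003 and 12.04 CPM in IFNγ-treated, 63.3, 64.2 and 64.7 CPM in irradiated and 70.5, 77.3 and 70.5 CPM in doubly treated libraries. CD70, the ligand of CD27, was at 27.8, 27.5 and 28.1 CPM, 19.8, 23.6 and 22.6 CPM, 83.5, 81.9 and 88.9 CPM and 89.4, 94.9 and 99.1 CPM in the same order. Both costimulators were high in the 2 irradiated groups and low in the others, and were 4.59-fold (adjusted p = 1.18e-34) and 3.40-fold (adjusted p = 4.24e-33) higher than in untreated cells, with SEs of 0.0754 and 0.0626 on the log2 scale. TNFRSF14 (3.35 ± 0.159), PDCD1LG2 (1.80 ± 0.1103) (PD-L2), IL18BP (4.59 ± 0.411) and CD47 (0.86 ± 0.0441), the signal that restrains phagocytes, rose, and LGALS9 had 1 untreated count and a ratio of 557 (exact 95% interval 99.7 to 22057). The NKG2D ligands were divided: MICA (-0.44 ± 0.0995) and ULBP3 (-0.68 ± 0.200) fell, and ULBP2 (0.30 ± 0.105) and RAET1G (1.58 ± 0.627) rose, the last from under 1 CPM. CD58, an adhesion ligand of T cells, fell (-0.17 ± 0.0741), a call lost without untreated replicate 2, where its adjusted p was 0.222, without doubly treated replicate 1 (0.121) and without doubly treated replicate 3 (0.107).

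Of 27 tested cell death genes 23 rose and 3 fell, beside 30.9% and 31.2% of all genes. TNFSF10 (TRAIL), a death ligand, was at 0.0938, 0.282 and 0.102 CPM in untreated and 7.06, 7.37 and 9.64 CPM in doubly treated libraries (5.54 ± 0.660, adjusted p = 2.90e-21), and its value without untreated replicate 2 was 6.20. CASP1, the inflammatory caspase, went from 3.85, 2.73 and 3.65 CPM to 53.9, 54.2 and 58.5 CPM (4.02 ± 0.145, adjusted p = 1.02e-38), and these 2 genes rose most. CASP10 (2.22 ± 0.196), CASP8 (0.79 ± 0.0659), FAS (1.59 ± 0.0678), the pore former GSDMD (1.44 ± 0.0775) and the BH3-only genes BBC3 (1.48 ± 0.0961) and PMAIP1 (1.35 ± 0.0510) rose. On the protective side BCL2 fell from 18.9, 19.4 and 19.3 CPM to 9.12, 6.99 and 6.70 CPM (-1.34 ± 0.119, adjusted p = 2.81e-15) and MCL1 (-0.21 ± 0.0292) fell, while BCL2L1 (0.74 ± 0.0400), another protector, rose.

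Of 39 tested p53 target genes 37 rose and 0 fell, beside 30.9% and 31.2% of all genes, with a median log2 fold change of 1.32. CDKN1A, which encodes the cyclin-dependent kinase inhibitor p21, was at 118, 103 and 115 CPM in untreated, 86.7, 92.3 and 92.0 CPM in IFNγ-treated, 619, 602 and 615 CPM in irradiated and 578, 594 and 592 CPM in doubly treated libraries. The doubly treated libraries lay beside the irradiated ones, with log2 differences of 2.40 ± 0.0378 from untreated (adjusted p = 1.25e-49) and -0.06 ± 0.0318 from irradiated cells (adjusted p = 0.184). MDM2, the ligase that degrades p53, was at 288, 320.0 and 323 CPM in untreated and 1457, 1448 and 1502 CPM in doubly treated libraries (2.24 ± 0.0320, adjusted p = 3.34e-49). FDXR (2.65 ± 0.0822), GDF15 (2.57 ± 0.0426), TP53INP1 (2.57 ± 0.0818) and BTG2 (2.39 ± 0.0825) rose over 4-fold each. Set beside each single treatment, 38 of 39 were higher than under IFNγ alone and 0 lower, against 30.3% and 30.4% of all genes. Only 6 were higher than under radiation alone and 6 lower, about the 14.5% and 12.4% of all genes. TRIM22, which is also an interferon target, was the member that rose most over untreated (4.04 ± 0.0717) and over irradiated cells (2.10 ± 0.0495, adjusted p = 6.09e-28). E2F7 (0.08 ± 0.0395) and TNFRSF10C (-0.09 ± 0.138) were the 2 members that did not pass the test.

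DNA replication genes fell: of 50 tested, 43 were lower and 1 higher, beside 31.2% and 30.9% of all genes. Their median log2 fold change was -0.57, and 15 fell at least 2-fold, beside 1.69% of all genes. MCM6, a subunit of the hexameric replicative helicase, was at 154, 152 and 151 CPM in untreated and 23.8, 24.6 and 23.0 CPM in doubly treated libraries (-2.68 ± 0.0577, adjusted p = 6.15e-45). The other helicase subunits MCM5 (-1.60 ± 0.0550), MCM2 (-1.45 ± 0.0438), MCM3 (-1.33 ± 0.0463), MCM7 (-1.05 ± 0.0349) and MCM4 (-0.78 ± 0.0341) also fell, by less. E2F1, which drives this set of genes, went from 47.7, 44.2 and 40.7 CPM to 8.34, 11.1 and 10.6 CPM (-2.14 ± 0.0952, adjusted p = 2.76e-29). CCNE2, a cyclin of S phase entry, went from 18.9, 17.8 and 18.2 CPM to 4.71, 4.16 and 4.50 CPM (-2.03 ± 0.137, adjusted p = 3.27e-21). None of these 3 had overlapping groups. PCNA, the sliding clamp and also a p53 target, was the member that rose, from 216, 206 and 215 CPM to 420.5, 417 and 415 CPM (0.97 ± 0.0328, adjusted p = 3.54e-33). RPA1 (-0.09 ± 0.0388), TYMS (-0.10 ± 0.0413) and RPA3 (-0.18 ± 0.0787) fell least among the called members. Against radiation alone 15 of 50 were higher and 2 lower, beside 14.5% and 12.4% of all genes. The median difference of the list was small, 0.09 on the log2 scale, and the count was not recomputed with library totals in place of TMM. ORC1 (0.36 ± 0.0855), POLD1 (0.35 ± 0.0584) and UHRF1 (0.25 ± 0.0554) were among the higher ones.

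The promoters of MCM6 and E2F1 hold E2F letters (TTTGGCGC or TTTCGCGC on either strand, which can overlap), shown in capitals, and MCM6 has them at 2 places.
MCM6 (chr2:135876502-135876615, minus strand): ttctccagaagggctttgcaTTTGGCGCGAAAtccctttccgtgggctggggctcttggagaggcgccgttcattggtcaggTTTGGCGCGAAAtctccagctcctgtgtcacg
E2F1 (chr20:33686386-33686425, minus strand): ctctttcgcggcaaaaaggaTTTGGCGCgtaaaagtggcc
Of 56 promoter windows of the replication list 10 held these letters (17.9%), against 0.968% of all promoters. The list matched the table through 42 of its 50 tested genes.

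Outside the list, FAM111B, a protease gene linked to DNA synthesis, had the largest decrease among the 12 named above, from 54.0, 59.2 and 58.2 CPM in untreated to 5.88, 6.80 and 6.80 CPM in doubly treated libraries (-3.13 ± 0.109, adjusted p = 1.09e-36). WDR76 went from 41.7, 44.4 and 43.2 CPM to 8.43, 7.65 and 7.71 CPM (-2.44 ± 0.0992, adjusted p = 7.73e-32). H1F0, the linker histone H1.0, went from 231, 235 and 225 CPM to 43.1, 46.6 and 43.7 CPM (-2.38 ± 0.0481, adjusted p = 2.85e-45). Each of these 3 was higher in all IFNγ-treated than in all doubly treated libraries, and H1F0 was at 32.0, 32.7 and 33.9 CPM in irradiated cells, below its doubly treated level (0.43 ± 0.0619, adjusted p = 6.65e-08).

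Mitosis genes did not follow replication genes. Of 42 tested, 18 rose and 9 fell, beside 30.9% and 31.2% of all genes, with a median log2 fold change of 0.01. HMMR (0.71 ± 0.0400), TOP2A (0.57 ± 0.0280), the kinase AURKA (0.53 ± 0.0400) and CDK1 (0.51 ± 0.0408), the kinase of mitotic entry, rose. CCNB1, the cyclin partner of CDK1, was at 282, 272 and 267 CPM in untreated and 322, 318 and 303 CPM in doubly treated libraries (0.20 ± 0.0333, adjusted p = 8.25e-07). MKI67, the proliferation marker, fell from 883, 908 and 894 CPM to 664, 665 and 672 CPM (-0.42 ± 0.0285, adjusted p = 2.06e-19), and the transcription factor gene MYBL2 (-1.15 ± 0.0574), CDC20 (-0.36 ± 0.0341) and ECT2 (-0.23 ± 0.0351) fell. Against radiation alone 27 of 42 were higher and 0 lower, beside 14.5% and 12.4% of all genes. Those differences were small, with a median of 0.14 on the log2 scale.

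Of 37 tested genes of DNA break repair 5 rose and 21 fell, beside 30.9% and 31.2% of all genes. In this list 0 changed 2-fold, beside 5.97% higher and 1.69% lower of all genes. EXO1 (-0.86 ± 0.0613), a nuclease that trims broken ends, and RAD54L (-0.66 ± 0.0751) and RAD54B (-0.60 ± 0.139), which act in homologous recombination, were among those that fell most. The kinases that signal breaks diverged: ATM (0.42 ± 0.0453) and CHEK2 (0.34 ± 0.0844) rose, CHEK1 (-0.39 ± 0.0536) fell and ATR (adjusted p = 0.946) did not pass the test. TP53BP1 (0.28 ± 0.0531) and POLQ (0.26 ± 0.0473), which act in end joining, rose, and the end-joining proteins of the Ku and DNA-PK complex XRCC5 (-0.29 ± 0.0279), XRCC6 (-0.30 ± 0.0288) and PRKDC (-0.09 ± 0.0285) fell.

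Of 34 tested genes that respond to ATF4 or to amino acid supply 27 fell and 5 rose, beside 31.2% and 30.9% of all genes. Their median log2 fold change was -0.79, and 16 fell at least 2-fold, beside 1.69% of all genes. ATF4 mRNA was at 420.1, 422 and 414 CPM in untreated, 414, 425 and 399 CPM in IFNγ-treated, 175, 178 and 181 CPM in irradiated and 169.7, 169 and 169 CPM in doubly treated libraries (-1.30 ± 0.0336 over untreated, adjusted p = 8.69e-39). The 2 irradiated groups were low and the 2 unirradiated groups high. SLC7A11 was at 96.8, 114 and 114 CPM in untreated, 71.4, 82.4 and 81.1 CPM in IFNγ-treated, 31.3, 35.2 and 34.3 CPM in irradiated and 12.5, 15.1 and 14.6 CPM in doubly treated libraries. It stepped down from group to group with no overlap, and its log2 differences were -2.94 ± 0.0903 from untreated (adjusted p = 8.79e-29), -2.48 ± 0.0921 from IFNγ-treated (adjusted p = 2.33e-25) and -1.26 ± 0.0999 from irradiated cells (adjusted p = 1.34e-13). ASNS, asparagine synthetase, went from 93.7, 90.6 and 93.0 CPM in untreated to 19.8, 20.0 and 19.0 CPM in doubly treated libraries (-2.24 ± 0.0643, adjusted p = 3.75e-38). CHAC1, which degrades glutathione, went from 7.04, 8.38 and 7.51 CPM to 0.687, 0.850 and 0.459 CPM (-3.50 ± 0.333, adjusted p = 1.93e-18). SLC1A4, a neutral amino acid carrier, went from 16.4, 15.6 and 15.1 CPM to 2.26, 2.83 and 2.39 CPM (-2.65 ± 0.166, adjusted p = 6.48e-24). Every doubly treated library was below every untreated one for these genes. Other carriers fell, including SLC7A5 (-1.79 ± 0.0370), SLC3A2 (-1.49 ± 0.0474), the shared heavy chain of system xc-, SLC1A5 (-1.25 ± 0.0425) and SLC7A1 (-1.20 ± 0.0402), and so did the serine synthesis enzymes PHGDH (-1.50 ± 0.0689) and PSAT1 (-1.45 ± 0.0401). The 5 that rose were ATF3 (2.45 ± 0.122), SESN2 (0.57 ± 0.0665), which is also a p53 target, CEBPB (0.54 ± 0.0561), VEGFA (0.34 ± 0.0348) and STC2 (0.22 ± 0.0394).

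ATF4 core letters (TGATGNAA, either strand) are shown in capitals for 2 genes that fell, ASNS and CHAC1, and for ATF3, which rose.
ASNS (chr7:97872449-97872496, minus strand): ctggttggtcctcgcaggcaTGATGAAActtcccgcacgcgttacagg
CHAC1 (chr15:40953242-40953289, plus strand): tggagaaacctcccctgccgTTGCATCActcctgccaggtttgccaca
ATF3 (chr1:212565196-212565243, plus strand): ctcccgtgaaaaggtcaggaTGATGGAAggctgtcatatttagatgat
Such letters occurred in 7 of 48 promoter windows of the list (14.6%) and in 3.14% of all promoters, and genes moving in opposite directions both carry them. The 48 windows came from 28 of the 34 tested genes.

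Of 20 cytosolic aminoacyl-tRNA synthetases, which load amino acids onto tRNAs, 14 fell and 3 rose, beside 31.2% and 30.9% of all genes. Their median log2 fold change was -0.28. YARS (-0.96 ± 0.0383), GARS (-0.91 ± 0.0337), AARS (-0.85 ± 0.0365) and MARS (-0.73 ± 0.0339) fell most. YARS was at 239.7, 229.8 and 242 CPM in untreated and 128, 118 and 120.3 CPM in doubly treated libraries, which did not overlap. WARS, described above, went the other way by 4.53 ± 0.0823, and QARS (0.36 ± 0.0383) and HARS (0.14 ± 0.0409) rose slightly.

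**Figure D4:**
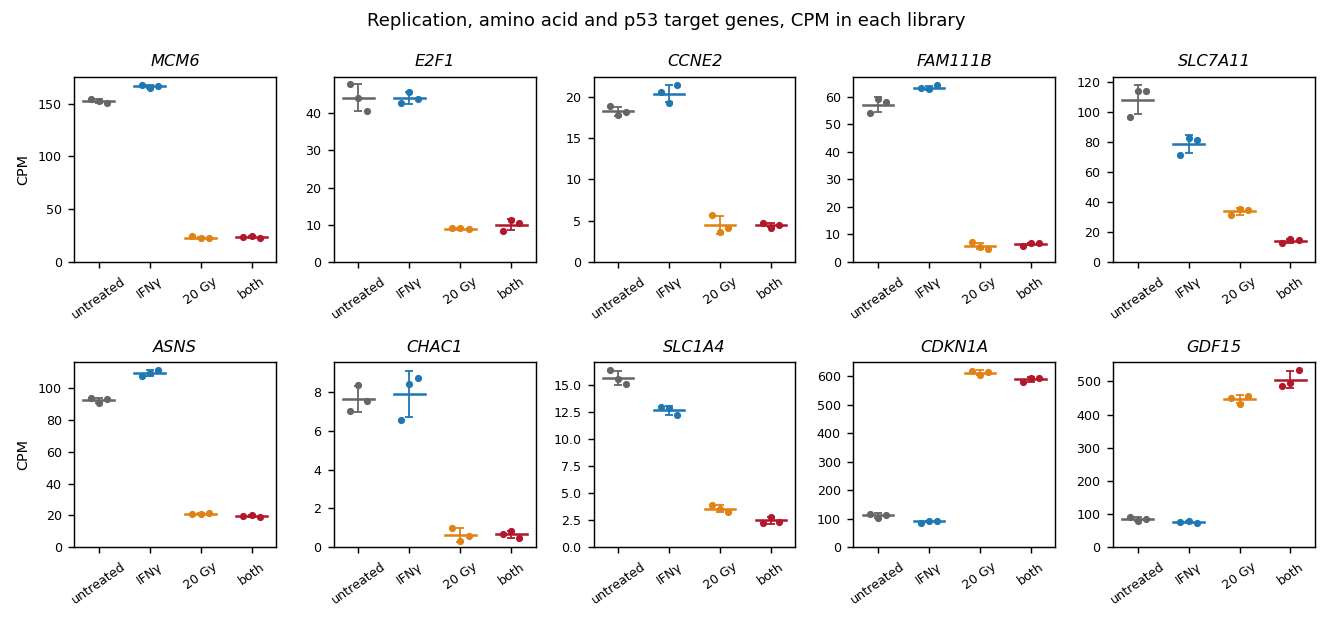
CPM on a linear axis from 0 (y axis) in each library for 10 replication, amino acid and p53 target genes in 4 groups (x axis: untreated, IFNγ, 20 Gy, and both); points are libraries, horizontal lines are group means and bars are SD over 3 libraries. Most genes sit at one level in the 2 unirradiated groups and another in the 2 irradiated groups, whereas SLC7A11 steps down across all 4.

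Glutathione is built from cystine-derived cysteine and lets the enzyme GPX4 reduce lipid peroxides, the failure of which is called ferroptosis. Of 22 tested genes of cystine import and glutathione 11 fell and 7 rose, beside 31.2% and 30.9% of all genes. After CHAC1, SLC7A11 and SLC3A2 the largest decrease was in GCLC (-0.79 ± 0.0821), the catalytic subunit of the first synthesis step, and TXNRD1 (-0.60 ± 0.0311) fell. GGT1 (1.45 ± 0.193) and GPX1 (0.79 ± 0.0380) rose. GPX4 was at 79.6, 72.7 and 73.3 CPM in untreated and 78.6, 70.9 and 74.5 CPM in doubly treated libraries, which overlapped (-0.01 ± 0.0498, adjusted p = 0.838). Yet GPX4 and GCLM were among the genes, described further on, whose doubly treated level differed from the 2 single treatments in opposite directions. Of 28 lipid peroxidation and iron genes 11 rose and 9 fell, not far from the 30.9% and 31.2% of all genes, so the count says nothing particular to the list. TFRC, the transferrin receptor that brings in iron, fell from 1172, 1188 and 1139 CPM to 669.7, 676 and 649 CPM (-0.81 ± 0.0277, adjusted p = 1.09e-32), and the ferritin chains that store iron, FTH1 (0.57 ± 0.0414) and FTL (0.53 ± 0.0299), rose. ACSL4, which activates polyunsaturated fatty acids for membrane lipids, was at 178, 208 and 197 CPM and 168, 182 and 170.3 CPM (-0.16 ± 0.0447, adjusted p = 0.00181). SAT1 (1.43 ± 0.0589), a polyamine acetyltransferase, PTGS2 (1.08 ± 0.0973) and LPCAT3 (0.67 ± 0.137) rose. HMOX1, which frees iron from haem, fell (-0.50 ± 0.0805, adjusted p = 3.22e-07), and SCD (-0.41 ± 0.0278) fell. Of 30 NRF2 targets 9 rose and 8 fell, with ABCC3 (1.08 ± 0.159) and AKR1B10 (1.88 ± 0.433) higher, SRXN1 (-0.70 ± 0.0554) lower, and NQO1 at 0.06 ± 0.0450 (adjusted p = 0.230). The shares of the NRF2 list are also close to those of all genes.

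Of 30 tested extracellular matrix and contractile genes 17 rose and 9 fell, beside 30.9% and 31.2% of all genes, so the share that fell was near that of all genes. ACTA2, smooth muscle actin, was at 7.32, 8.09 and 7.92 CPM in untreated, 7.82, 6.91 and 9.73 CPM in IFNγ-treated, 40.1, 39.4 and 41.6 CPM in irradiated and 44.2, 44.1 and 46.3 CPM in doubly treated libraries (2.53 ± 0.102 over untreated, adjusted p = 3.70e-32). CTGF, a target of TGFβ and YAP signalling, was at 504, 491 and 499.7 CPM, 224, 259 and 256 CPM, 391, 381 and 392 CPM and 190.4, 192 and 169 CPM in the same order (-1.44 ± 0.0432 over untreated, adjusted p = 2.99e-23). ACTA2 was high in the 2 irradiated groups, and CTGF was lowest in doubly treated cells. CYR61 (-0.95 ± 0.0339), COL8A1 (-1.03 ± 0.199) and THBS1 (-0.53 ± 0.0318) fell, and TNC (0.92 ± 0.0750), FBN1 (0.59 ± 0.0354) and TGFB1 (0.62 ± 0.0377) rose. BGN rose (1.27 ± 0.544) from under 1 CPM, a call lost without single libraries (adjusted p 0.0722 without untreated replicate 2, 0.0993 without untreated replicate 3, 0.0706 without doubly treated replicate 1, 0.0862 without doubly treated replicate 3). Set beside each single treatment, 20 of 30 were higher and 4 lower than under IFNγ alone, against 30.3% and 30.4% of all genes. Relative to radiation alone 3 were higher and 21 lower, against 14.5% and 12.4% of all genes. Of 9 matrix proteases and inhibitors 6 rose and 2 fell, beside the same 30.9% and 31.2% of all genes. The inhibitor TIMP3 (1.52 ± 0.0757) rose most, and the collagenase MMP1 (-0.64 ± 0.133) fell.

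Lysosome genes rose widely and by small amounts: 29 of 32 rose and 0 fell, with a median log2 fold change of 0.41. Beside this and the other counts of this paragraph stand the 30.9% higher and 31.2% lower of all genes. Radiation alone over untreated gave 28 lysosome genes higher and 0 lower, with a median of 0.40, and IFNγ alone gave 5 higher and 5 lower. FUCA1 (2.58 ± 0.144), a fucosidase and p53 target, rose most, and NEU1 (0.93 ± 0.0637), GRN (0.91 ± 0.0564) and GAA (0.89 ± 0.0814) rose too. CTSK rose from 0.750, 0.282 and 1.42 CPM to 2.16, 1.70 and 1.93 CPM (1.25 ± 0.377), and its value was 1.87 without untreated replicate 3. All 8 mitochondrially encoded transcripts in the table rose, with a median of 0.30, and took 3.53, 3.61 and 3.61% of counts in untreated and 4.29, 4.34 and 4.25% in doubly treated libraries. All 8 were also higher under radiation alone than in untreated cells, with a median of 0.35, and 2 were under IFNγ alone. Of 14 NF-kB subunits and feedback genes 8 rose and 2 fell, with TRAF1 (1.85 ± 0.239) and BIRC3 (1.58 ± 0.231) higher and the feedback inhibitor TNFAIP3 (-0.45 ± 0.109) and NFKB1 (-0.41 ± 0.0523) lower, and NFKBIA at 0.04 ± 0.101 (adjusted p = 0.740). Of 12 senescence-associated genes 6 rose and 3 fell: CDKN1A, GDF15 and IGFBP7 (0.98 ± 0.0428) rose, and LMNB1 (-0.76 ± 0.0402), the lamin that is lost in senescent cells, HMGB1 (-0.58 ± 0.0313) and CXCL8 fell. Of 29 cholesterol and fatty acid synthesis genes 6 rose and 11 fell. These counts are not far from the 30.9% and 31.2% of all genes, so they say nothing particular to the list. Among its members SQLE (-0.43 ± 0.0439) and EBP (-0.43 ± 0.0725) fell, and IDI1 (0.46 ± 0.0447) and STARD4 (0.58 ± 0.0456) rose.

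Some genes lay beyond every other group, being called in the same direction against untreated, IFNγ-treated and irradiated cells. There were 647 on the higher side (5.32% of genes tested) and 439 on the lower side (3.61%). Of the antiviral list 24 of 45 were on the higher side, of the complement list 9 of 13, of class I presentation 8 of 22 and of mitosis 9 of 42. APOBEC3G, a cytidine deaminase that mutates viral DNA, was at 3.47, 4.33 and 3.96 CPM in untreated, 19.9, 16.1 and 18.4 CPM in IFNγ-treated, 11.995, 12.9 and 11.1 CPM in irradiated and 56.3, 52.2 and 58.4 CPM in doubly treated libraries. IL32, a cytokine, was at 1.13, 0.471 and 0.711 CPM, 10.98, 8.12 and 9.03 CPM, 4.03, 4.12 and 4.86 CPM and 36.6, 37.1 and 41.0 CPM in the same order. In both genes each single treatment was above untreated and the pair of treatments was above both, and the log2 differences from the nearer single treatment were 1.62 ± 0.0774 (adjusted p = 1.02e-26) and 2.03 ± 0.103 (adjusted p = 3.28e-26). IFIT1 was at 3.10, 4.05 and 2.64 CPM, 19.7, 16.2 and 13.4 CPM, 9.17, 8.64 and 10.0 CPM and 35.2, 35.6 and 49.5 CPM. The stress factor ATF3 was at 5.07, 5.46 and 5.68 CPM, 12.8, 12.7 and 11.2 CPM, 10.3, 10.0 and 12.1 CPM and 27.6, 31.6 and 29.1 CPM. TRANK1 was at 6.19, 8.00 and 7.92 CPM, 39.4, 34.6 and 34.2 CPM, 26.4, 29.0 and 31.7 CPM and 74.0, 82.1 and 91.7 CPM, so these 3 genes had the same order of groups without overlap between the doubly treated libraries and the rest. Their log2 differences from IFNγ-treated cells were 1.29 ± 0.167 (adjusted p = 3.25e-05), 1.27 ± 0.0926 (adjusted p = 1.84e-18) and 1.20 ± 0.0721 (adjusted p = 1.19e-16).

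On the lower side, 7 of 34 ATF4 and amino acid genes and 7 of 20 aminoacyl-tRNA synthetases lay below all 3 other groups, beside 3.61% of all genes. CXCL8 was at 65.8, 72.3 and 68.2 CPM in untreated, 26.8, 33.1 and 36.5 CPM in IFNγ-treated, 22.6, 21.8 and 23.8 CPM in irradiated and 12.8, 14.3 and 9.64 CPM in doubly treated libraries, a log2 difference of -0.90 ± 0.121 from irradiated cells (adjusted p = 4.82e-07). S1PR1, a receptor for sphingosine 1-phosphate, was at 14.1, 17.6 and 14.7 CPM, 6.73, 6.81 and 7.02 CPM, 5.34, 6.13 and 7.10 CPM and 2.94, 4.53 and 2.02 CPM (-0.97 ± 0.196 from irradiated cells, adjusted p = 6.89e-05). F3, tissue factor, which starts blood clotting, was at 34.4, 35.8 and 34.1 CPM, 29.6, 27.0 and 29.7 CPM, 24.3, 22.8 and 26.6 CPM and 12.9, 12.8 and 15.2 CPM (-0.85 ± 0.0909 from irradiated cells, adjusted p = 1.28e-11). In these 3 genes both single treatments were below untreated and the doubly treated libraries were the lowest of all. SLC7A11, given above, belongs to the same set, as do SAMD5 (-1.45 ± 0.179 over untreated) and KRTAP2-3 (-1.60 ± 0.180 over untreated), a keratin-associated protein gene whose family holds similar copies. ESM1, a secreted proteoglycan, was at 111, 149.7 and 146 CPM, 81.5, 94.6 and 98.8 CPM, 33.5, 32.3 and 31.1 CPM and 26.8, 20.5 and 22.8 CPM. It fell from untreated (-2.54 ± 0.168, adjusted p = 4.57e-07), and its difference from irradiated cells did not pass the test (-0.47 ± 0.196, adjusted p = 0.119). The count of genes on the lower side was 282 without doubly treated replicate 3. Without irradiated replicate 2, which stood apart in the marker counts above, 551 genes were on the higher and 342 on the lower side. Without irradiated replicate 1 the counts were 567 and 343, and without replicate 3 they were 583 and 330, so the loss was not particular to replicate 2.

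For another 371 genes (3.05%) the doubly treated cells were not called against untreated cells but differed from the 2 single treatments in opposite directions. In 206 they were above IFNγ-treated and below irradiated cells, and in 165 the reverse. CD274 (PD-L1) was at 34.5, 32.1 and 39.0 CPM in untreated, 60.0, 58.1 and 56.9 CPM in IFNγ-treated, 20.3, 24.2 and 18.9 CPM in irradiated and 31.7, 32.6 and 37.7 CPM in doubly treated libraries. IFNγ-treated cells had the highest and irradiated cells the lowest level, and the doubly treated and untreated libraries overlapped (-0.05 ± 0.0755, adjusted p = 0.615). The differences of doubly treated cells were -0.78 ± 0.0696 from IFNγ-treated (adjusted p = 1.11e-13) and 0.69 ± 0.0853 from irradiated cells (adjusted p = 4.06e-09). ERI1, an exonuclease of histone mRNA, and BATF3, an AP-1 family factor, had the same order, with ERI1 at 77.2, 74.8 and 72.3 CPM, 120.3, 117 and 119.7 CPM, 43.3, 43.9 and 44.9 CPM and 69.1, 72.7 and 75.9 CPM. BATF3 was at 5.07, 3.76 and 4.36 CPM, 10.9, 8.21 and 9.63 CPM, 2.02, 1.41 and 2.24 CPM and 5.79, 4.25 and 4.22 CPM. The collagen chain COL1A1 showed the opposite order, at 6.66, 6.12 and 5.58 CPM, 2.87, 3.36 and 1.71 CPM, 9.58, 9.94 and 8.75 CPM and 6.28, 5.48 and 4.96 CPM. In the same way the receptor ROR1 was above IFNγ-treated (1.14 ± 0.177, adjusted p = 7.39e-08) and below irradiated cells (-0.73 ± 0.129, adjusted p = 7.15e-06), and so was the growth factor BMP2 (0.90 ± 0.213, adjusted p = 1.91e-04; -0.90 ± 0.161, adjusted p = 6.50e-06). A p above 0.05 against untreated cells does not show that the level was the same: the log2 difference from untreated was -0.04 ± 0.0489 for ERI1 and 0.23 ± 0.187 for BMP2, a difference that these libraries bound more tightly for ERI1.

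**Figure D5:**
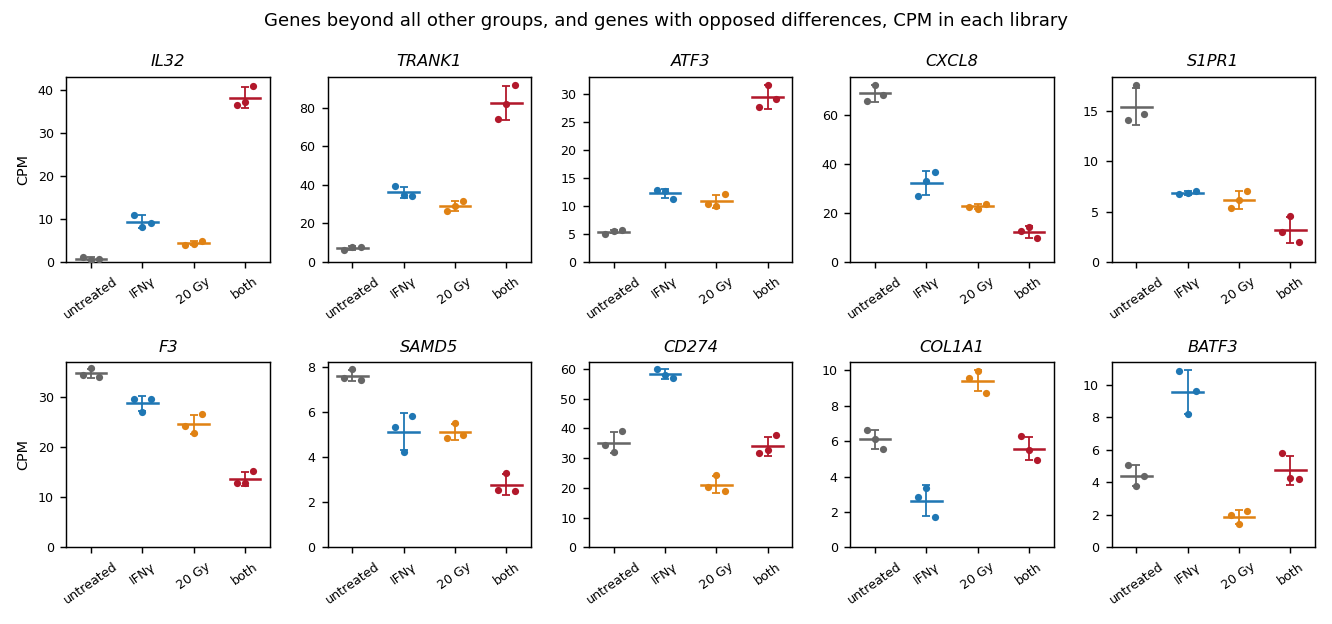
CPM on a linear axis from 0 (y axis) in each library for 7 genes beyond all other groups in doubly treated cells and 3 genes (CD274, COL1A1 and BATF3) with opposed differences from the 2 single treatments, in 4 groups (x axis: untreated, IFNγ, 20 Gy, and both); points are libraries, horizontal lines are group means and bars are SD over 3 libraries. For CD274, COL1A1 and BATF3 the doubly treated libraries overlap the untreated ones and lie between the 2 single treatments.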

How the data were processed

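RNA was measured in 12 libraries of HT1080 cells, 3 per group, placed in their groups by their titles. The labels' protocols describe column-purified total RNA, ribosomal RNA removal and a stranded total RNA kit with paired-end reads, while the series' design text names an mRNA kit, so which preparation was used is not settled. The submitters' processing notes name TopHat2 2.0.13, Cuffdiff 2.2.1, Cufflinks, FastQC 0.11.3 and the hg19 (GRCh37) build, with no roles given. How reads were counted, with which strand setting and annotation, is not given in these labels or files, so reads of overlapping genes and near-identical copies may be split in ways that cannot be seen. The authors deposited raw counts per gene, whole numbers for 19293 protein-coding genes, with totals of 9675126 to 11010656 per library. The table holds 27 symbols turned into dates, which were kept as they stand, and 18 second copies of genes shared by the sex chromosomes, with 0 counts.

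From these counts edgeR 4.0.16 (R 4.3.3, limma 3.58.1) kept genes by filterByExpr with a minimum count of 10, scaled by TMM, and fitted all 12 libraries in 1 robust quasi-likelihood model. Each contrast was tested with Benjamini-Hochberg adjustment at 0.05 over 12160 genes, with no covariate. CPM use the TMM-scaled library total. Where a group had 0 counts, the fold is a lower bound against 3 counts over that group, and with 1 to 3 counts the ratio has an exact 95% interval; both cover counting error only. The chi-square per degree of freedom between replicates ran from 1.13 to 2.67, so no 2 libraries agreed within sampling noise. Untreated replicate 1 gave 2.67 and 2.07 against its replicates 2 and 3, which gave 1.26 against each other. The script was tested on simulated data before use. Named genes are the 12 largest changes in each direction where the mean over all libraries reached 2 on the log2 CPM scale and the groups did not overlap, up to 4 called members per list and direction, the 6 largest in each set relative to all groups, and a fixed list of pathway genes. Other list members are named for their role and were chosen after their values were seen. The members and lists were chosen with earlier results of these data known. Alternatives were library totals, RLE scaling, no filter, DESeq2 1.42.0, only the libraries compared, a replicate block, and leaving out each library. Promoter windows come from RefSeq on GRCh38.p14, matched by symbol with Python 3.11.15, and no coordinate of the other build was used. The deposited table gives no coordinates. Results for some named genes are not reported here.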

Additional observations from a re-analysis of the deposited data

How the results depend on the processing

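Counts of genes higher and lower in doubly treated than in untreated cells stayed within 1.5 times of 3752 and 3798 under all 18 alternatives. Directions were compared between alternatives only for the genes named by rule, and none of those that were called reversed. BATF3, CD274, GPX4 and ROR1, which were not called against untreated cells, changed sign under some alternatives. Of 223 gene results 216 kept their call under every alternative; PTPN2, CD55, IL1A, CD58, HSD17B7, MVD and BGN did not. Of 52 list counts 49 stayed within 1.5 times; the exceptions were the lower genes of interferon gamma signalling (1 to 0), the lower complement genes (2 to 1) and the higher cholesterol genes (6 to 3 with DESeq2). Against radiation alone, lower genes numbered 1509, and 2278 with library totals or 867 with DESeq2, where all called genes fell from 3270 to 2129. DESeq2 gave 395 genes above all other groups in place of 647, and 218 below all others in place of 439. Leaving out 1 library at a time, the latter count ran from 282 without doubly treated replicate 3 to 498 without untreated replicate 1. The cause of these shifts was not tested.

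Replicate numbers did not pair the samples: same-numbered libraries correlated between -0.07 and 0.05 over 18 pairs of group and number, none over 0.1, and 0 libraries correlated best with their own number. A fit with the replicate number as a block gave 3746 higher and 3795 lower genes. The sets defined against several groups have no fit with only 2 groups. Depth limits genes near silence in untreated cells, whose folds are lower bounds or wide intervals.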
